A study of Rattus norvegicus with 6 samples.

Results

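Interferon-inducible guanylate-binding proteins and the MHC class I presentation genes of rat colon were followed here as a list of 10 genes set by name, namely Gbp2, Gbp5, Gbp7, Ubd, Irf1, Nlrc5, B2m, Tap1, Tap2 and RT1-A2. Of the 17388 genes in the tables, 9 of these 10 were matched by symbol, in the T cell and the enterocyte tables alike. Tap2 was not matched to a row and was not analysed here. The data were unique molecular identifiers (UMIs), tags that count captured RNA molecules, in single nuclei of flash-frozen colon from 9 wild-type male Wistar rats, with 3 rats in each of 3 treatments. Sham rats drank plain water and received no capsules. Placebo and PL8177 rats shared a 3-day exposure to 5% dextran sulfate sodium (DSS), which injures the colon epithelium, and then were gavaged 2 times a day for 4 days with capsules that held no drug or 50 µg of PL8177, an agonist of the melanocortin 1 receptor. All placebo and PL8177 rats were thus taken during recovery on plain water, and only 1 dose of PL8177 was sequenced. Nuclei that the authors had called T cells (1018) or enterocytes (8782) were compared, 9800 in all. The labels do not list the rats, so the library tag in the nucleus names stands for the rat here: GR12, GR13 and GR15 for sham, GR22, GR23 and GR24 for placebo, and GR41, GR43 and GR44 for PL8177.

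Interferon-gamma made by lymphocytes acts on most cells of the gut wall through its receptor and the kinases Jak1 and Jak2, which leads to induction of Irf1, and Irf1 in turn activates a second wave of genes. Among these are the guanylate-binding proteins, large GTPases that assemble on intracellular bacteria and vacuoles, and Ubd, the ubiquitin-like modifier also called FAT10. Nlrc5 is the transactivator of MHC class I genes, whose products show peptides to CD8+ T cells: RT1-A2 encodes a class I heavy chain of the rat, B2m the light chain shared by all class I molecules, and Tap1 and Tap2 the transporter that carries peptides into the endoplasmic reticulum.

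The sequences just upstream of the members show which of them carry the letters of known interferon response elements. Each window below holds the 200 bases before the annotated start of the gene, printed 5′ to 3′ on the strand of the gene, from RefSeq promoters of the build GRCr8. Capitals mark GAAA NN GAAA, the core of the interferon-stimulated response element, read on either strand (TTTC NN TTTC on the other), and TTCNNNGAA, the core of the gamma-activated site, whose fixed letters read the same on both strands. The windows are chr2:234005527-234005726, chr2:233910799-233910998, chr2:233948689-233948888, chr10:38417735-38417934 and chr3:129549130-129549329 on the plus strand, and chr20:4668544-4668743 on the minus strand.
Gbp2: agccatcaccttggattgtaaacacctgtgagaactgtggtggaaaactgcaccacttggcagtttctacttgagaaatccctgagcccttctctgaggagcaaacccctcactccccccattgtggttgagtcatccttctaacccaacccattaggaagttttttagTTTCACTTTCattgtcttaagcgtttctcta
Gbp5: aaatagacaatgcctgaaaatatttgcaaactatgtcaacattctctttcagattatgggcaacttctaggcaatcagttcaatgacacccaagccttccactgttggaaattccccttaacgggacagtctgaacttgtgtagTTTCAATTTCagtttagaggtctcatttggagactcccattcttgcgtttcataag
Gbp7: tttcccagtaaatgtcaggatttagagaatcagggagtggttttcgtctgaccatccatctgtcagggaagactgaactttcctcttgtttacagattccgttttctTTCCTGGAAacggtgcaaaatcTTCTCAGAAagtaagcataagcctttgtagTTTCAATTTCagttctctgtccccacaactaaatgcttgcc
Irf1: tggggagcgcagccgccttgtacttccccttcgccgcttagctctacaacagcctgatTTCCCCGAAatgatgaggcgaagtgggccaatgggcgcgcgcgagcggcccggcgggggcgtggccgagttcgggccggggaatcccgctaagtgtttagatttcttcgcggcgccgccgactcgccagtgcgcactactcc
B2m: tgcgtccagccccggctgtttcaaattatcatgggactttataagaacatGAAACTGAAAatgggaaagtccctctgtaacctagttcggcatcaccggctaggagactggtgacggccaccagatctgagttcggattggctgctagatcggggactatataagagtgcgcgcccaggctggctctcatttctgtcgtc
Tap1: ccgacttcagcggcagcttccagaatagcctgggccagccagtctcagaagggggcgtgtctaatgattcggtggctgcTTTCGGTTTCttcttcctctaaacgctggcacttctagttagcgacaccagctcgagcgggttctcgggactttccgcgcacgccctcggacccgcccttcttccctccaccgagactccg
GAAA NN GAAA occurred in 6 of the 9 members with a window (Gbp2, Gbp5, Gbp7, B2m, Tap1 and Tap2), against 2.74% of 33469 RefSeq promoter windows of this length. It lay between 31 and 22 bases before the start in Gbp2, 56 and 47 in Gbp5, 41 and 32 in Gbp7 and Tap2, 121 and 112 in Tap1, and 150 and 141 in B2m. TTCNNNGAA occurred in 2 of the 9, at 2 places in Gbp7 and 1 in Irf1, against 6.07% of all windows, and no match of one motif overlapped a match of the other. Neither was found in the windows of Ubd and RT1-A2, which says only that these letters are not in these windows, and Nlrc5 had no entry. A match is a description of the letters and not a binding site.

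Depth differed widely between rats. Enterocyte nuclei numbered 304 to 1531 per rat with 310927 to 3995627 UMIs over the 15108 genes complete in all 6 tables, and their median depth ran from 425 to 2283 UMIs. T cell tables held 19 to 91 nuclei and 8070 to 234958 UMIs in 8 rats, but 685 nuclei and 779009 UMIs in placebo rat GR23. The labels were set against 13 T cell and 15 enterocyte markers. Enterocyte tables held 0.148 to 0.868 UMIs of the T cell markers per 10000 and 169 to 415 of the enterocyte markers. The T cell tables of 8 rats held 25.3 to 58.2 UMIs of T cell markers and 22.8 to 88.5 of enterocyte markers per 10000. Among these, enterocyte markers exceeded T cell markers in GR13 (80.5 against 29.7), GR15 (41.6 against 30.9) and GR41 (61.5 against 32.4). The same held for GR43 (70.0 against 25.3) and GR44 (88.5 against 36.7), but not for GR12, GR22 and GR24. The T cell table of GR23 went against its label, with 2.09 of T cell and 215 of enterocyte markers. Cd3d, Cd3g, Cd2 and Cd5 were at 0 in its 685 nuclei, which did not set it apart. In the other 8 rats 0 to 7 of the 13 T cell markers were at 0, on fewer UMIs. For the mismatch of label and markers in GR23, some results on T cells are given with and without GR23, and the others include it. Results without GR23 still include T cell tables with more enterocyte than T cell marker UMIs. Cell barcodes seen in more than 1 library numbered 10, and no nucleus stood in both tables of a library. No cell type of these tables is known to lack these genes, so no share of nuclei could serve as a background for free RNA.

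Levels are given as UMIs per 10000 UMIs of a rat's nuclei. In enterocytes the guanylate-binding proteins were rare transcripts, with the highest level of each treatment in sham rat GR13, placebo rat GR23 and PL8177 rat GR44. Gbp2, which helps to lyse bacterial vacuoles, stood at 0.325, 1.23 and 0.663 in the sham rats, in the order of their tags as for all values by rat. Placebo rats had Gbp2 levels of 0.0262, 0.482 and 0.199, and those of PL8177 rats were 0.0576, 0.0726 and 0.618. The 3 treatments overlapped on these summed UMIs. On nuclei thinned to 300 UMIs, shallower ones left out, sham rats lay above placebo rats, at 0.288 to 1.46 against 0.0506 to 0.25. At this depth 4.9% of 9100 enterocyte genes were higher in all sham rats than in all placebo rats. The lowest sham rat, GR12, held Gbp2 in 0.864% of 926 thinned nuclei, and the highest placebo rat, GR23, in 0.749% of 267. The gap between GR12 and GR23 thus rests on few Gbp2 UMIs. In sham rat GR12, 25 of the 101 Gbp2 UMIs came from 1 of 929 nuclei. Gbp5, a GTPase tied to inflammasome activation, was at 0.058, 0.274 and 0.0621 in sham rats, at 0.00785, 0.0965 and 0.0409 with placebo and at 0, 0.00751 and 0.0941 with PL8177. Its 33 UMIs in sham, 13 with placebo and 10 with PL8177 leave each level with a large counting error. The 0 in GR41 allows a level of up to 0.0173, taking 3 counts as the limit. Gbp7, a membrane-bound member of the family, ran from 0.00966 to 0.708 in sham, from 0.00262 to 0.225 with placebo and from 0 to 0.255 with PL8177, a spread of 73.3 times within sham and 86.0 times within placebo.

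Ubd was close to absent in some rats of every treatment and well detected in others. It stood at 7.24 UMIs per 10000 in sham rat GR13, but at 0.00644 in GR12 and 0 in GR15. In placebo rats it stood at 0.0131, 1.25 and 0.21, and in PL8177 rats at 0, 0.025 and 2.06. The same 3 rats, GR13, GR23 and GR44, again held the high values, and the highest placebo rat exceeded the lowest 95.8 times. In GR13, 107 of 827 enterocyte nuclei carried 317 Ubd UMIs, against 0 of 708 nuclei in GR15 and 0 of 1016 in GR41, which allow shares of up to 0.424% and 0.295%. These limits are for nuclei with a detected Ubd UMI at median depths of 506 and 1373.5 UMIs, and do not bound the share of nuclei that express Ubd.

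**Figure D1:**
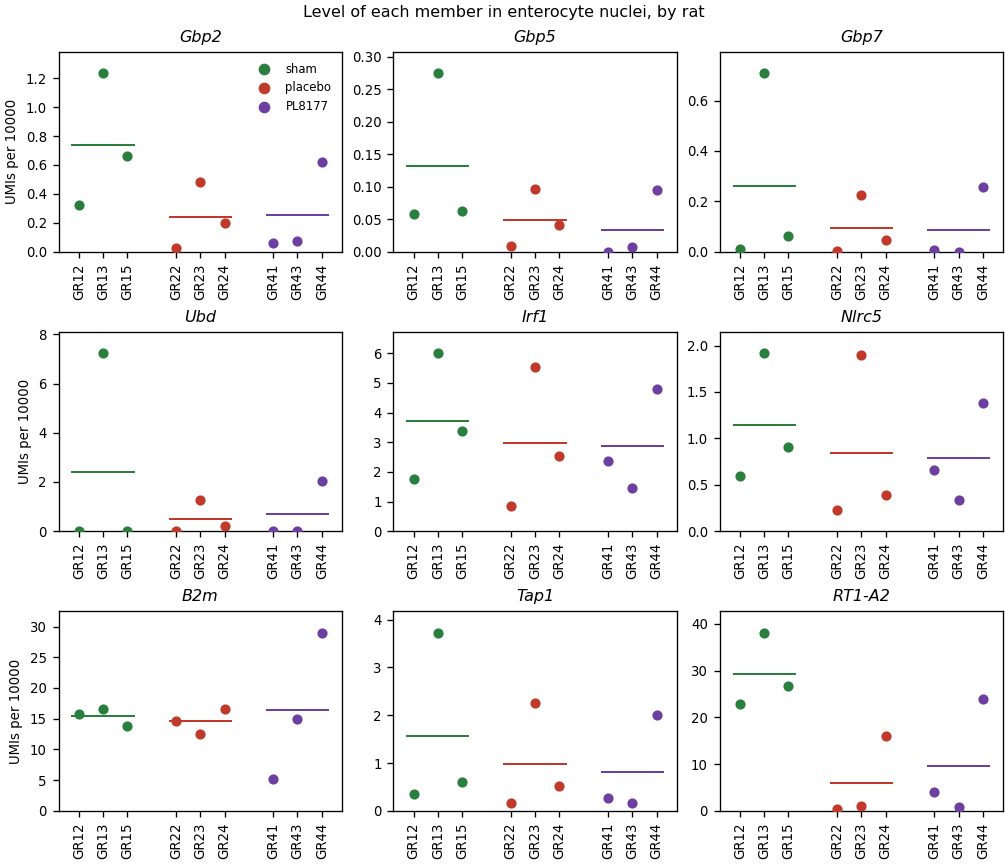
Level of the 9 members in enterocyte nuclei in UMIs per 10000 UMIs (y axes, a separate linear scale per gene), with 1 point per rat and a line at the mean of the 3 rats of a treatment. In 7 of the 9 panels GR13, GR23 and GR44 are the highest points of their treatments, while B2m and RT1-A2 differ in the placebo rats.

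The regulators Irf1 and Nlrc5 had the same highest rat in each treatment, with smaller spreads within a treatment than Ubd. Irf1, the transcription factor that drives the second wave of interferon-gamma targets, was at 1.75, 6.01 and 3.38 in sham, 0.861, 5.53 and 2.54 with placebo and 2.35, 1.46 and 4.80 with PL8177. Nlrc5 was at 0.592, 1.92 and 0.911 in sham, 0.233, 1.90 and 0.392 with placebo and 0.657, 0.333 and 1.38 with PL8177. For both genes the treatments overlapped almost fully, and the highest rat of a treatment exceeded the lowest by 3.24 to 8.14 times.

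Of the presentation genes, Tap1 followed the regulators, while B2m and RT1-A2 each had an order of their own. Tap1, a subunit of the peptide transporter, was at 0.348, 3.73 and 0.601 in sham, 0.170, 2.25 and 0.514 with placebo and 0.271, 0.155 and 2.002 with PL8177. B2m was the steadiest member in sham and placebo rats, at 15.8, 16.5 and 13.8 and at 14.7, 12.5 and 16.5, but ranged from 5.19 in GR41 through 14.98 in GR43 to 29.0 in GR44. With thinned nuclei, the mean B2m level was 13.7 in sham and 9.94 in placebo enterocytes, against 15.4 and 14.6 before thinning. RT1-A2 stood at 22.8, 38.1 and 26.7 in sham, 0.463, 1.13 and 15.97 with placebo and 4.01, 0.731 and 23.9 with PL8177. All 3 sham rats lay above all 3 placebo rats, and the PL8177 rats reached into the sham range through GR44 alone.

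On summed UMIs RT1-A2 was the 1 member whose sham and placebo rats did not overlap, where 5.03% of the 9100 enterocyte genes with such a comparison were higher in all sham rats than in all placebo rats and 14.7% were lower. Mean RT1-A2 levels were 29.2 ± 7.97 in sham and 5.85 ± 8.77 in placebo rats (SD, n = 3 each). The exact two-sided permutation test gave p = 0.1, the smallest p that 3 against 3 rats allow. PL8177 rats averaged 9.53 ± 12.5, which overlapped with sham (exact permutation p = 0.2). On nuclei thinned to 300 UMIs, RT1-A2 in placebo rats, at 0.228 to 12.9, and in PL8177 rats, at 0.848 to 22.9, lay below the sham rats, at 23.4 to 39.3 (4.9% of genes were higher in sham than with placebo and 4.68% lower with PL8177 than in sham). With the mean over nuclei in place of the sum, placebo rats reached 13.6 and PL8177 rats 21.8, below the lowest sham rat at 22.8 (5.45% and 4.99% of genes). The share of thinned nuclei with at least 1 RT1-A2 UMI was 41.7%, 56.1% and 46.5% in sham, 0.683%, 3.00% and 25.7% with placebo and 6.69%, 2.13% and 41.2% with PL8177. Without thinning these shares were 79.3%, 61.8% and 61.0%, then 8.61%, 6.91% and 49.9%, then 32.9%, 12.3% and 62.4%.

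RT1-A1 is the symbol of another class I heavy chain gene. Reads of one may be counted under the other, so the 2 levels are uncertain as levels of single genes. The sequences of the 2 genes were not compared, and whether reads were misassigned was not tested. RT1-A1 stood at 20.0, 62.0 and 56.3 in sham, 6.42, 29.3 and 21.0 with placebo and 3.67, 9.14 and 35.5 with PL8177. Of the RT1-A1 and RT1-A2 UMIs together, RT1-A2 held 53.2%, 38.1% and 32.2% in sham rats, 6.73%, 3.70% and 43.2% with placebo and 52.2%, 7.40% and 40.2% with PL8177. The 3 rats GR22, GR23 and GR43 thus stood apart from the other 6, with exact (Clopper-Pearson) 95% intervals that reached at most 8.26%, while the lowest bound of the other 6 was 30.7%. These intervals cover counting error only. GR23 had a low RT1-A2 share beside a high RT1-A1 level, whereas in GR41 both symbols were low and the share was 52.2%. In the T cell tables RT1-A2 held 2 of 25 UMIs in GR22, 4.56% of 1665 in GR23, but 50.9% of 53 UMIs in GR43. All 27 RT1-A2 UMIs of the GR43 T cell table came from 5 of 39 nuclei, 10 of them from 1 nucleus, and none from the 15 nuclei in which T cell markers were not outnumbered by enterocyte markers.

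**Figure D2:**
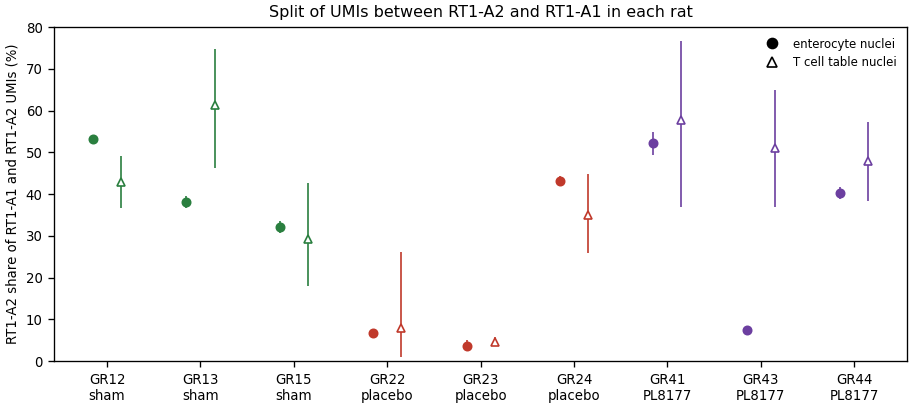
Share of RT1-A2 among RT1-A1 and RT1-A2 UMIs in percent (y axis) for each rat, in enterocyte nuclei (filled circles) and T cell table nuclei (open triangles), with exact 95% intervals as lines. GR22 and GR23 are low in both tables, while GR43 has 7.40% in enterocytes and 50.9% in its T cell table.

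Sham and placebo rats differed in DSS and in capsule gavage, which their comparison cannot tell apart. None of the members passed the test. In sham enterocytes all 9 members were fitted higher than in placebo, with a median log2 fold change of 2.09 against -0.02 over all 9424 genes tested. With edgeR's quasi-likelihood test over sums per rat, 0 of the 9 were called at the thresholds used for enterocytes (Benjamini-Hochberg adjusted p below 0.05, log2 fold change beyond 0.5 in either direction), where 0.0% of all genes were called. DESeq2 called 0 of the 9 as well, and 107 of the same 9424 genes. At an unadjusted p below 0.05 there were 0 of the 9, where 12.4% of all genes stood. Gbp2 had a log2 fold change of 2.24 (SE 1.05, edgeR adjusted p = 0.410) and RT1-A2 of 2.46 (SE 1.22, edgeR adjusted p = 0.430). The log2 fold changes of the others were 2.09 for Gbp5, 2.47 for Gbp7, 3.05 for Ubd, 0.57 for Irf1, 0.84 for Nlrc5, 1.09 for Tap1 and 0.24 for B2m, with edgeR adjusted p between 0.493 and 0.860. Without GR13, the fold changes of Ubd, Gbp7, Tap1 and Irf1 turned to -5.75, -1.09, -0.77 and -0.06. Those of Gbp2, RT1-A2, Nlrc5 and B2m stayed positive under all 15 alternatives, and that of Gbp5 under the 14 in which it was fitted. Gbp2 ranged from 1.42 to 3.67 and RT1-A2 from 1.90 to 5.54. The lowest values of Gbp5, Nlrc5 and B2m were 1.03, 0.170 and 0.119.

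PL8177 was set against placebo to ask whether the drug moved these genes, and against sham to ask what distance remained. The 3 comparisons share rats with each other. Against placebo, 8 members were fitted higher and 1 lower, with a median of 0.36 against -0.01 over all genes. None of the 9 was called by edgeR or DESeq2 (0.0% of all genes by edgeR and 50 of 9424 by DESeq2). At an unadjusted p below 0.05 there were 0 of the 9, where 9.24% of all genes stood. The log2 fold changes were 0.51 for Gbp2 (SE 1.08), 1.10 for Ubd (SE 2.22), 0.08 for Tap1 (SE 1.15), 0.36 for B2m (SE 0.46) and 0.87 for RT1-A2 (SE 1.17), and their edgeR adjusted p ran from 0.867 to 0.992. Without GR44 all 5 turned negative, at -1.19, -4.15, -1.83, -0.40 and -1.22. Gbp2 and Tap1 also turned without GR22 (-0.31 and -0.53), and Tap1 without GR24 (-0.23). Against sham, 1 member was fitted higher and 8 lower, with a median of -1.58 against 0.03 over all genes. Neither tool called any of the 9 (0.0% of all genes by edgeR and 4 of 9424 by DESeq2). Of the 9, 0 had an unadjusted p below 0.05, where 6.59% of all genes stood. Gbp2 had a log2 fold change of -1.73 (SE 0.99, edgeR adjusted p = 0.779) and RT1-A2 of -1.58 (SE 1.19, edgeR adjusted p = 0.833).

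A difference between rats recurred within each treatment. GR13, GR23 and GR44 were the highest of their treatments for 7 of the 9 members (Gbp2, Gbp5, Gbp7, Ubd, Irf1, Nlrc5 and Tap1), where 7.43% of the 9100 enterocyte genes had this order. These 3 rats and 7 genes were singled out after their values were seen, so the order is a description. The same 3 rats had the lowest median depth of their treatments, at 425, 598 and 730.5 UMIs per nucleus against 506 to 2283 in the other 6. They also had the highest summed level of 7 macrophage or dendritic cell markers of their treatments, at 1.60, 1.32 and 1.30 UMIs per 10000 against 0.267 to 1.01. Csf1r, Cd68, Itgax, Cd163 and Lyz2 were at 0 in GR13, as were 5 of the 7 in GR23 and 4 in GR44. No other marker list was highest in all of these rats. Goblet cell markers were lowest of placebo in GR23, at 1.09, and smooth muscle markers were at 1.94 in GR13 against 2.53 in GR15. The summed level of the T cell markers was the lowest of its treatment in GR13 and GR44, at 0.274 and 0.148, and the highest in GR23, at 0.868. Whether depth or other cells had a part in the order was not tested.

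Thinning put nuclei on a common depth. The 7 members and the rats GR13, GR23 and GR44 are those singled out above. Higher shares in these rats thus follow in part from that choice, and the shares describe the order without testing it. With each enterocyte nucleus at 300 UMIs, at least 1 of the 7 members was detected in 37.0% of 663 nuclei of GR13, 24.0% of 267 of GR23 and 23.3% of 725 of GR44, and in 3.80% to 14.7% of nuclei in the other 6 rats. At least 2 of the 7 were detected in 8.30%, 4.12% and 4.69% of these nuclei, against 0.0688% to 1.17% in the other rats. Nuclei called doublets were 4.23% of the 827 nuclei of GR13, 35 of the 78 doublets in all, and 0% to 0.861% in the other 8 rats. With doublets left out, an alternative chosen after the values were seen, the shares in GR13, GR23 and GR44 were 37.2%, 24.0% and 23.4% for at least 1 member and 8.43%, 4.12% and 4.71% for at least 2. Over all rats, 11.5% of 8144 thinned nuclei held at least 1 of the 7, and 33.8% of 8782 before thinning (exact 95% interval 32.9% to 34.8%, counting error only).

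**Figure D3:**
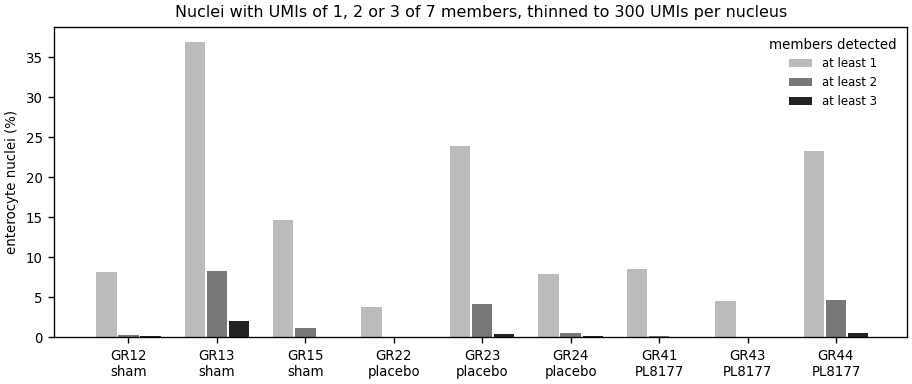
Share of enterocyte nuclei in percent (y axis, from 0) with UMIs of at least 1, 2 or 3 of the 7 members named in the text, for each rat, with every nucleus thinned to 300 UMIs. GR13, GR23 and GR44 reach 37.0%, 24.0% and 23.3% for at least 1 member, and the next rat, GR15, 14.7%. The 7 members were chosen after their values in these rats were seen.

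In GR13 and GR44 most other members were detected more often in nuclei with Ubd than in nuclei without it. In GR13, nuclei with a Ubd UMI numbered 69 of 663 thinned nuclei, and 14.5% of them also held Gbp2, 23.2% Irf1, 15.9% Tap1 and 56.5% B2m, against 2.02%, 14.1%, 9.93% and 29.6% of the 594 nuclei without Ubd. In GR44, 35 nuclei held Ubd, and 11.4% of them held Gbp2, 22.9% Irf1, 20.0% Tap1 and 82.9% B2m, against 1.30%, 10.4%, 4.93% and 41.0% of the other 690. RT1-A2 was detected in 73.9% and 60.0% of the Ubd nuclei of GR13 and GR44, and in 54.0% and 40.3% of the remainder. Gbp5 was an exception in GR44, with 0 of the 35 Ubd nuclei against 0.290% of the others. With doublets left out, Gbp2 was in 15.2% of 66 Ubd nuclei of GR13 against 1.95% of the other 563. In GR23 only 10 of 267 thinned nuclei held Ubd, and 0 of them held Gbp2, Gbp5, Gbp7 or RT1-A2, which were in 0.778%, 0.389%, 1.17% and 3.11% of the other 257. Irf1, Nlrc5 and Tap1 were each in 20.0% of these 10 nuclei, against 10.9%, 4.67% and 5.45% of the other 257, and B2m was in 60.0% against 16.3%. Nuclei of 1 rat are not replicates, and these shares are given without a test.

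In the T cell tables the library of GR23 carried most of the members' counts. GR23 supplied 60.7% of all UMIs in these tables, but 96.3% of those of Gbp2, 97.2% of Ubd, 94.5% of Gbp5, 94.0% of Gbp7, 92.9% of Nlrc5, 88.0% of Irf1, 85.1% of Tap1 and 77.0% of B2m, and 20.8% of those of RT1-A2. Gbp2 stood there at 9.76 UMIs per 10000 (760 UMIs in 210 of 685 nuclei), against 0.482 in the enterocyte table of the same rat, a ratio of 20.2. The ratio between these 2 tables of GR23 was 27.4 for Gbp5 and 19.6 for Gbp7, both resting on few enterocyte UMIs (3 and 7), 3.58 for Ubd, 2.03 for Nlrc5, 1.63 for Tap1 and 1.33 for Irf1, and below 1 for B2m (0.839) and RT1-A2 (0.867). These ratios come from 1 rat and have no replicate. Only 21 of the 685 nuclei held a T cell marker without being outnumbered by UMIs of enterocyte markers. Nuclei that met this rule are called T cell marker nuclei. Gbp2 stood at 1.06 in those 21 nuclei (2 UMIs) and at 9.97 in the other 664.

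The T cell tables of the other 8 rats held few UMIs of most members. Gbp2 was at 0.340, 3.72 and 0.381 in sham rats, at 0 and 0.264 in placebo rats GR22 and GR24, and at 2.08, 0.662 and 2.93 in PL8177 rats, from 0 to 8 UMIs a rat. The 0 of GR22 allows up to 0.559. Ubd was detected in 4 of these 8 rats, with 2, 4, 1 and 3 UMIs in GR12, GR13, GR43 and GR44. Gbp5 was detected in 4 of the 8, Gbp7 in 6 and Nlrc5 in 6, each with at most 13 UMIs a rat. RT1-A2 was better covered, at 4.55, 37.2 and 6.48 in sham, 0.373, 0.976 and 4.88 with placebo and 6.24, 4.47 and 26.9 with PL8177. Its lowest 2 levels were those of placebo rats GR22 and GR23, while GR24 lay within the range of the other treatments. GR13, GR23 and GR44 were the highest of their treatments for 5 of the 7 members named above, the exceptions being Gbp5 and Nlrc5, and were so for B2m as well. This order was seen in 1.74% of 14148 genes with a UMI in these tables. It was seen in 5.96% of the 1828 genes that passed the filter on low counts, which Gbp7 and Ubd of the 5 did not pass. GR13 held 3 or 4 UMIs of each of the 5, and GR43 and GR44 held 1 Gbp7 UMI each. On nuclei thinned to 300 UMIs, Gbp2 and Gbp7 kept the order. Irf1 in GR13 was then at 0, below GR12 and GR15, and Tap1 was at 2.38 in GR13 against 6.35 in GR15. Ubd was at 0 in all PL8177 rats, and B2m was lower in GR13 than in GR12. The order of the 5 in these tables thus rests on few UMIs.

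**Figure D4:**
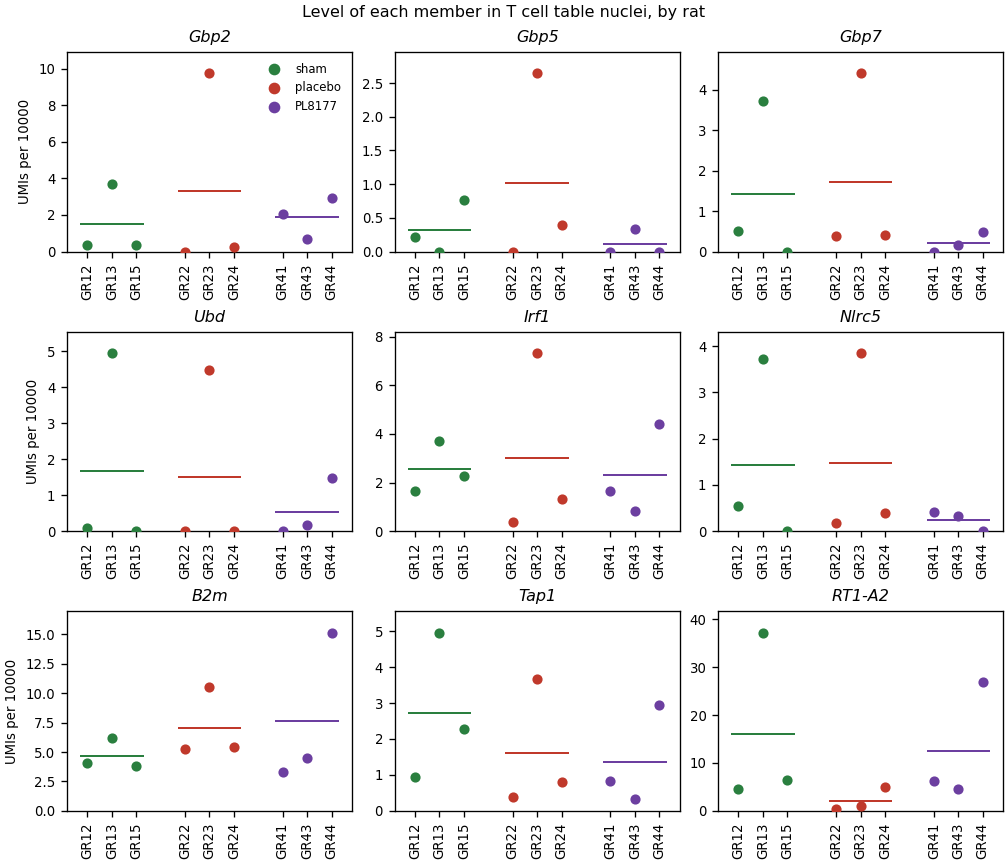
Level of the 9 members in T cell table nuclei in UMIs per 10000 UMIs (y axes, a separate linear scale per gene), with 1 point per rat and a line at the mean of the 3 rats of a treatment. GR23 holds the highest placebo value for every member except RT1-A2, and GR13, with 8070 UMIs in all, reaches 3.72 with 3 UMIs.

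No member changed between treatments in the T cell tables by the test. Of the 9 members 5 passed the filter on low counts (Gbp2, Irf1, B2m, Tap1 and RT1-A2), and edgeR called 0 of the 5 in each of the 3 comparisons at the same adjusted p and a log2 fold change beyond 1.5 in either direction, where 0.0% of 1828 genes were called, and DESeq2 called 0 too. RT1-A2 was the 1 member with an unadjusted p below 0.05 in sham against placebo (4.92% of all genes) and in PL8177 against placebo (0.985%), with log2 fold changes of 2.59 (SE 1.00, edgeR adjusted p = 0.919) and 2.50 (SE 0.99, edgeR adjusted p = 0.999). In PL8177 against sham there were 0 of the 5, where 1.2% of all genes stood. Levels per rat of RT1-A2 overlapped, with means of 16.1 ± 18.3 in sham, 2.08 ± 2.45 with placebo and 12.5 ± 12.5 with PL8177 (SD, n = 3 each; exact permutation p = 0.2 for sham and for PL8177 against placebo). Gbp2 was fitted at -2.76 in sham and -1.45 in PL8177 against placebo, and without GR23 at 2.06 and 3.35. Tap1 was at -0.17 in sham against placebo and at 1.62 without GR23, and B2m was at -0.96.

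T cell and enterocyte tables of the same rat were compared with the rat as a block, since both come from 1 library. Gbp2 and Tap1 were higher and B2m was lower in the T cell tables. Of the 6 members tested edgeR called 3, 2 higher and 1 lower, where 34.1% of 5194 genes were called (13.3% higher and 20.7% lower). B2m had a log2 fold change of -1.57 (SE 0.28, edgeR adjusted p = 0.000140), was lower in 9 of 9 rats, and was at -1.87 without GR23. Gbp2 was at 1.82 (SE 0.53, edgeR adjusted p = 0.00972) and higher in 7 of 9 rats. Without GR23 its difference was 0.98 (edgeR adjusted p = 0.0195), and among T cell marker nuclei Gbp2 fell below the filter. Tap1 was at 0.76 (SE 0.29, edgeR adjusted p = 0.0419) and higher in 9 of 9 rats. Its call was lost when any of GR12, GR15, GR22, GR24, GR41 or GR43 was left out (edgeR adjusted p = 0.0635 to 0.156), with T cell marker nuclei (0.53, edgeR adjusted p = 0.202), with no filter on low counts (0.27, edgeR adjusted p = 0.646) and without the rat as a block (0.49, edgeR adjusted p = 0.615). The T cell tables of the other 8 rats held 2 to 22 Tap1 UMIs each.

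Irf1, RT1-A2 and Nlrc5 were fitted at -0.63, -0.71 and -0.25 in T cell tables against enterocytes and were not called (edgeR adjusted p = 0.0697, 0.179 and 0.667). Irf1 was lower in 8 of 9 rats, GR23 being the exception, at 7.33 against 5.53. Without GR23, 5 of the 6 members were called (54.5% of 5129 genes), with Irf1 at -0.86 (edgeR adjusted p = 0.000736) and RT1-A2 at -0.99 (edgeR adjusted p = 2.26e-05). RT1-A2 was also called without GR43 (-1.08, edgeR adjusted p = 0.0292), and both genes were called among T cell marker nuclei (-1.24 and -1.53).

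**Figure D5:**
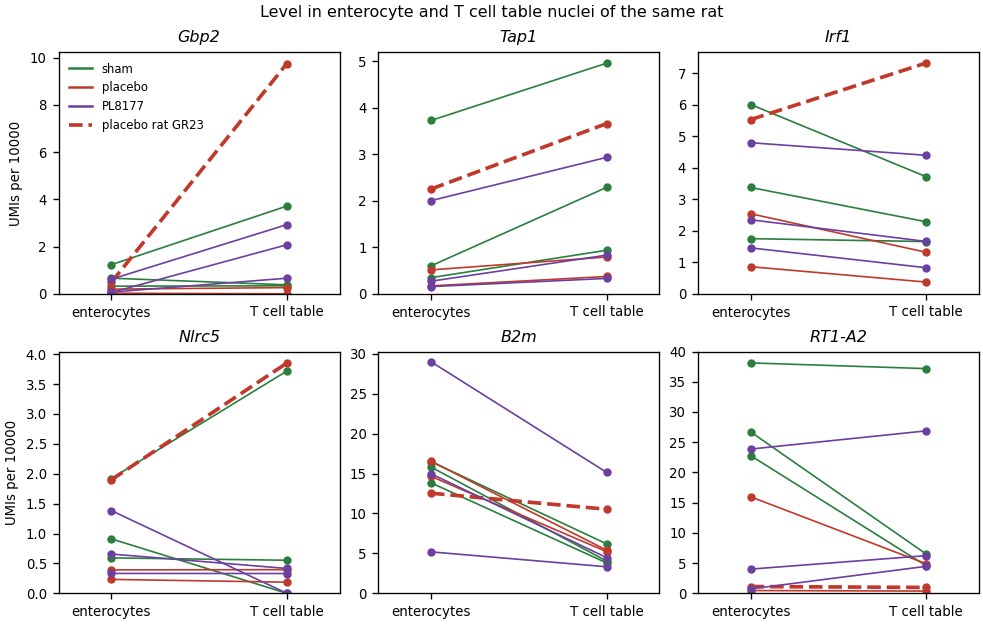
Level in UMIs per 10000 UMIs (y axes, a separate linear scale per gene) in the enterocyte and the T cell table of the same rat for the 6 members tested, with 1 line per rat. B2m is lower and Tap1 higher on the right in 9 of 9 rats, and placebo rat GR23 (dashed) has the steepest Gbp2 line.

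Whether a treatment difference in the T cell tables was unlike that in enterocytes was tested as an interaction, and 0 of the 6 members were called in each of the 3 comparisons (0.0% of 5194 genes). At an unadjusted p below 0.05 there was 1 of the 6 in sham against placebo (Gbp2, -2.86, SE 1.01), 1 in PL8177 against placebo (RT1-A2, 1.68, SE 0.80) and 2 in PL8177 against sham (RT1-A2, 2.78, SE 0.75, and Gbp2, 3.11, SE 0.98), where 6.53%, 3.48% and 1.66% of all genes stood. Their edgeR adjusted p ran from 0.713 to 1. With 1 rat left out, Gbp2 ran from -3.96 to -0.149 in sham against placebo and from 2.40 to 3.95 in PL8177 against sham. Without GR23, RT1-A2 was called in PL8177 against placebo (2.41, edgeR adjusted p = 0.0495) and in PL8177 against sham (2.69, edgeR adjusted p = 1.94e-06), where 3 (0.0585%) and 5 (0.0975%) of 5129 genes were called. The T cell table of GR43, with 27 RT1-A2 UMIs in 5 nuclei and a share of RT1-A2 unlike that of its enterocytes, enters both.

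The neighbours of the members in the pathway showed no called change between treatments in enterocytes either. Of 30 other class I presentation genes 23 were tested, of 16 other interferon-inducible GTPases 6, and of 24 interferon-gamma signalling genes 16. Of these, edgeR called 0 in each of the 3 enterocyte comparisons, where 0 of all 9424 genes were called. Gbp3, the best-covered GTPase, stood at 13.3, 42.0 and 28.1 in sham, 5.77, 27.9 and 18.4 with placebo and 15.8, 11.4 and 33.1 with PL8177, with the same 3 rats highest. For the T cells, 7, 2 and 10 genes of the 3 lists were tested. There too edgeR called 0 of them in each comparison, where 0 of all 1828 genes were called.

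Between T cell tables and enterocytes, edgeR called 4 of 11 other presentation genes (1 higher, 3 lower), 3 of 4 other GTPases (2 higher, 1 lower) and 5 of 15 signalling genes (5 higher), against the same 34.1% of all genes. The class I heavy chain genes RT1-A1, RT1-CE10 and RT1-CE4 were lower (-1.21, -0.88 and -0.83) and the chaperone Canx was higher (0.76). Gbp3 was lower in the T cell tables (-1.80, SE 0.37, edgeR adjusted p = 0.000610), opposite to Gbp2, while the GTPases Igtp (1.83) and Gvin1 (2.52) were higher. Jak1 (1.09), Irf8 (1.06), Wars (1.01) and Jak2 (0.81) were among the signalling genes that were higher. Without GR23 all of the genes named here were called in the same direction except Wars, which fell below the filter. The counts were then 6 of 11 presentation genes (2 higher, 4 lower), 3 of 3 GTPases (2 higher, 1 lower) and 6 of 14 signalling genes (4 higher, 2 lower), against 54.5% of 5129 genes.

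The genes whose levels most resembled the members' over the 9 rats of enterocytes were ranked by Pearson's r with the mean standardised log2 CPM of the 9 members. That mean was highest in GR13 (1.38) and GR44 (1.02), then GR23 (0.46), and lowest in GR22 (-1.13). The 10 most alike were Psma7 (r = 0.986), Snrnp70 (0.975), Adm (0.959), RT1-S3 (0.959), Cntnap5b (0.956), Rnf167 (0.955), Rnf213 (0.953), Ankrd11 (0.949), Chst11 (0.945) and Pml (0.944). For Nlrc5 alone, the 10 were Ifi47 (0.973), Ephx4 (0.969), Rars (0.965), Xrn1 (0.961), Isg15 (0.957), Lactb (0.955), Irf1 (0.955), Scly (0.953), Trip11 (0.952) and Ddx58 (0.952). The points share the libraries and their depth, so these values are a description without a test.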

How the data were processed

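Single nuclei libraries of rat colon (10x Genomics, 3' ends) were counted by the authors with Cell Ranger 6.0.1 on the rat genome Rnor 6.0, introns included. The authors ran CellBender against droplets without a nucleus and other artifacts, and assigned cell types from clusters made in Seurat 4.0.3. The 6 deposited tables hold whole UMI counts for each gene and nucleus, not normalized. The copy of the placebo T cell table used here breaks off after 15108 of the 17388 genes. A partial line at the break was dropped, the 2280 genes without complete values were not analysed for that table, and levels rest on the 15108 genes complete in all tables.

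Counts of a rat's nuclei were summed within a cell type. The sums were tested with the quasi-likelihood functions of edgeR 4.0.16 under R 4.3.3, with TMM scaling, filterByExpr and Benjamini-Hochberg adjusted p, in a fit over the 3 treatments for each cell type. T cell tables and enterocytes were compared with the rat as a block, since both come from the same library. No tag pairs rats of different treatments. The p-values of treatment comparisons within a cell type measure the spread between the 3 rats of a treatment, as far as tags are rats. Those of fits with the rat as a block measure how the difference between the 2 cell types of a rat varies between rats. The edgeR steps were run on simulated counts with a large change set in some genes. This does not show how small a change could be found in these data. Alternatives were DESeq2 1.42.0, RLE scaling, unfiltered genes, 1 rat left out at a time, a minimum of 500 genes a nucleus, nuclei thinned to 300 UMIs, T cell marker nuclei, no block, and doublets removed. Scrublet in scanpy 1.11.5 called 78 of 9800 nuclei doublets (0.796%), which were otherwise kept. Python 3.11.15, numpy 2.4.6, scipy 1.17.1, pandas 2.3.3 and matplotlib 3.10.9 were used for the remaining steps. Promoter windows came from RefSeq (GRCr8) and no coordinates of Rnor 6.0 were used.

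The members and the related lists were chosen with earlier results of these data known. All members are named, and of each related list the genes that were called, or the 3 with the largest UMI total where none was. One gene of these lists is counted but not reported here by name. Likeness was ranked over edgeR's log2 CPM with a prior count of 2. Other cell types were not analysed here.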

Additional observations from a re-analysis of the deposited data

How the results depend on the processing

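In the treatment comparisons within a cell type, none of the members tested was called under any alternative run. For enterocytes in sham against placebo, the number of all genes called moved from 0 of 9424 to 107 with DESeq2 on the same genes. It was 51 with no filter on low counts, 6 with thinned nuclei and 0 to 8 with 1 rat left out. For PL8177 against placebo it moved from 0 to 8 with no filter and 50 with DESeq2. For PL8177 against sham it was 10 with no filter, 4 with DESeq2 and 0 to 2 with 1 rat left out. In T cell tables it moved from 0 to 33 and 4 with no filter in sham and in PL8177 against placebo, and was 0 to 1 with 1 rat left out in PL8177 against sham. Fitted directions of members depended on single rats. In sham against placebo enterocytes, leaving out 1 rat gave Ubd -5.75 to 4.80, Gbp7 -1.09 to 3.63, Tap1 -0.77 to 2.36 and Irf1 -0.063 to 1.28. In PL8177 against placebo enterocytes it gave Gbp2 -1.19 to 1.21, Tap1 -1.83 to 1.36, B2m -0.40 to 0.79, Ubd -4.15 to 2.86 and RT1-A2 -1.22 to 3.94, and Tap1 was -0.022 with DESeq2. In T cell tables it gave Gbp2 -3.78 to 2.06 and Tap1 -0.69 to 1.62 in sham against placebo, where Tap1 was also 0.081 with DESeq2 and 0.00028 with nuclei of at least 500 genes, and Gbp2 -2.0 to 3.35 in PL8177 against placebo.

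Between T cell tables and enterocytes, 6 of the 9 members and 3881 of at most 15108 genes were called with no filter. With 1 rat left out 2 to 5 members and 1160 to 2797 genes were called. The highest counts were those without GR23, with 5 of 6 members and 54.5% of 5129 genes. With no replicate block 2 members and 1636 of 5194 genes (31.5%) were called, and Nlrc5 turned to 0.37. In the interaction with 1 rat left out, 0 to 4, 0 to 3 and 0 to 5 genes were called in the 3 comparisons, and 0 to 1 member in PL8177 against placebo and against sham. With T cell marker nuclei 3 genes were called in PL8177 against sham. Of 27 pairs of a member and an enterocyte comparison, 1 had rats that did not overlap (RT1-A2 in sham against placebo), 3 with thinned nuclei (also Gbp2 in sham against placebo and RT1-A2 in PL8177 against sham) and 2 with the mean over nuclei (both of RT1-A2), beside 4.68% to 5.45% of genes in the same direction. The share of enterocyte nuclei with 1 of the 7 members was 11.5% when thinned and 11.4% when doublets were left out as well, an alternative chosen after seeing the data. The causes were not tested. With 3 rats a treatment and few UMIs of most members in the T cell tables, a test that was not passed does not show that levels were alike.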
